A study of Mus musculus with 6 samples.

Results

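The transcripts of NRF2 (Nfe2l2), of its inhibitor KEAP1 (Keap1) and of 8 classic NRF2 targets (Nqo1, Srxn1, Txnrd1, Gclc, Gclm, Gsr, Osgin1 and Ephx1) were followed in mouse livers. A member was the probe set that the platform annotation pairs with that symbol alone, and where a gene had several, the one with the highest mean over all arrays. All 10 genes were measured, among 18194 genes in all. The KO group comprised the livers of 3 male mice aged 10 weeks, labelled as L-Pex5 knockouts with the genotype L Pex5 -/-. The WT group comprised the livers of 3 male WT mice of the same age. Both groups are labelled with the same mixed genetic background, which names Tac:[Sw]fBR and Alb-Cre, that is, Cre recombinase under the promoter of albumin, which is active in hepatocytes. Pex5 is the receptor that brings enzymes into the peroxisome. Whether other liver cells also lost Pex5 was not measured here. Total RNA of each liver was hybridised to 1 Affymetrix mouse array, and the labels call the 3 arrays of a group biological replicates.

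NRF2 is a transcription factor that pairs with a small MAF protein and binds antioxidant response elements in the DNA. KEAP1 holds it in the cytosol and hands it to the CUL3 ubiquitin ligase, and electrophiles or oxidants that modify KEAP1 let NRF2 escape, so its activity is set largely at the protein level, which these arrays do not measure. In the liver its targets make glutathione, regenerate thioredoxin and disarm quinones, epoxides and other reactive compounds.

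Levels below are log2 values and differences are KO minus WT on that scale, where ± is the SE of the limma estimate. Arrays of 1 group correlated at r of at least 0.989 over all genes, and a KO with a WT array at 0.976 at most. Pex5 itself stood at 9.35, 9.19 and 9.13 in KO livers, against 9.14, 8.88 and 9.11 in WT livers (difference 0.18 ± 0.11, adjusted p = 0.262). Whether its probes lie in the deleted stretch is not given in the sources used here, and so Pex5 does not check the labels. The hepatocyte markers (9 genes, among them Alb, Ttr and Apoa1) averaged 12.96 to 13.01 on KO arrays and 12.97 to 13.11 on WT arrays. Of them 0 were higher (also at an unadjusted p under 0.05 in limma) and 1 was lower, the protease inhibitor gene Serpina1c (-0.98, adjusted p = 0.000331). The median level of 45 control probe sets for bacterial and phage transcripts was lower on KO arrays (8.90 to 9.06) than on WT arrays (9.44 to 9.61). Centring the arrays on them adds 0.59 to every difference and moves the median over all genes to 0.53, against -0.055 as deposited, so the directions below are relative to the bulk of the genes.

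In KO livers Nqo1, Srxn1, Ephx1, Txnrd1 and Nfe2l2 itself were higher, while Keap1, Gclc, Gclm, Gsr and Osgin1 did not pass the test. Thus 5 of 10 members were higher and 0 lower (limma, adjusted p under 0.05 over all genes), where 24.0% of all 18194 genes passed, 14.2% as higher and 9.75% as lower. At an unadjusted p under 0.05 in limma the counts were 6 and 0, with Gclc added, where 3636 and 3372 of all 18194 genes passed. In the same 5 genes every KO liver lay above every WT liver, which held for 22.1% of all genes (the opposite for 22.6%), and the groups overlapped in the other 5. The median difference of the 10 members was 0.57. The members were chosen with earlier results of these data known, so these counts and shares are a description. Nqo1 and Srxn1 rose far more than the others, by 2.79 and 2.69, with only 0.308% and 0.352% of all genes rising more. With the arrays centred on the control transcripts, 9 of 10 members passed as higher, where 77.3% of all genes did and 1.87% passed as lower. Distances from the median of all genes are the same on both scales, since centring adds a constant to every difference. By that measure 9 members stood above the median of all genes, by 0.16 (Gsr) to 2.85 (Nqo1), and Gclm stood 0.14 below it.

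**Figure D1:**
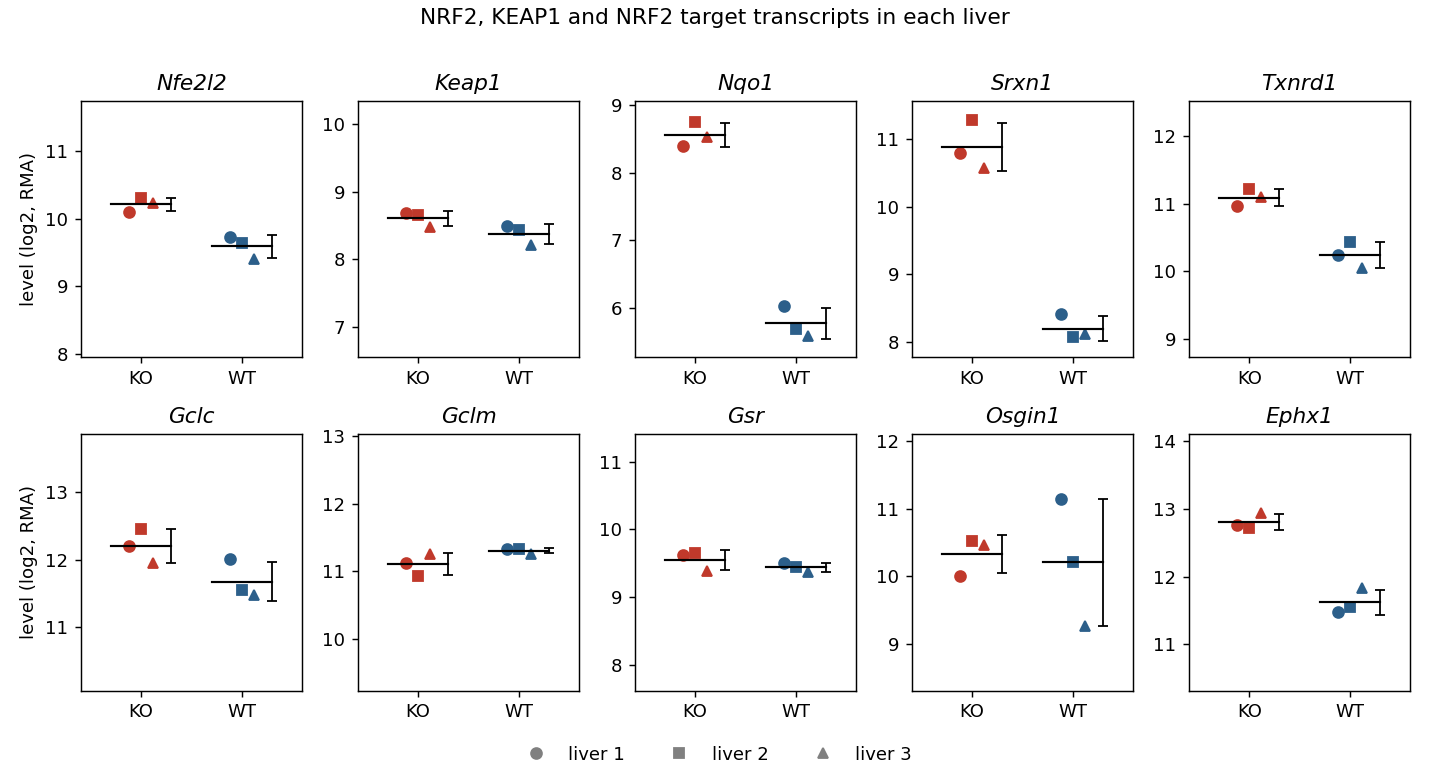
Level (log2, RMA) of each of the 10 transcripts in the 3 KO and 3 WT livers, with the liver number given by the symbol, the mean by the long line and the SD by the bar. Each panel spans the same number of log2 units, so Nqo1 and Srxn1 show the widest gap between KO and WT, and Osgin1 the widest spread among WT livers.

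**Figure D2:**
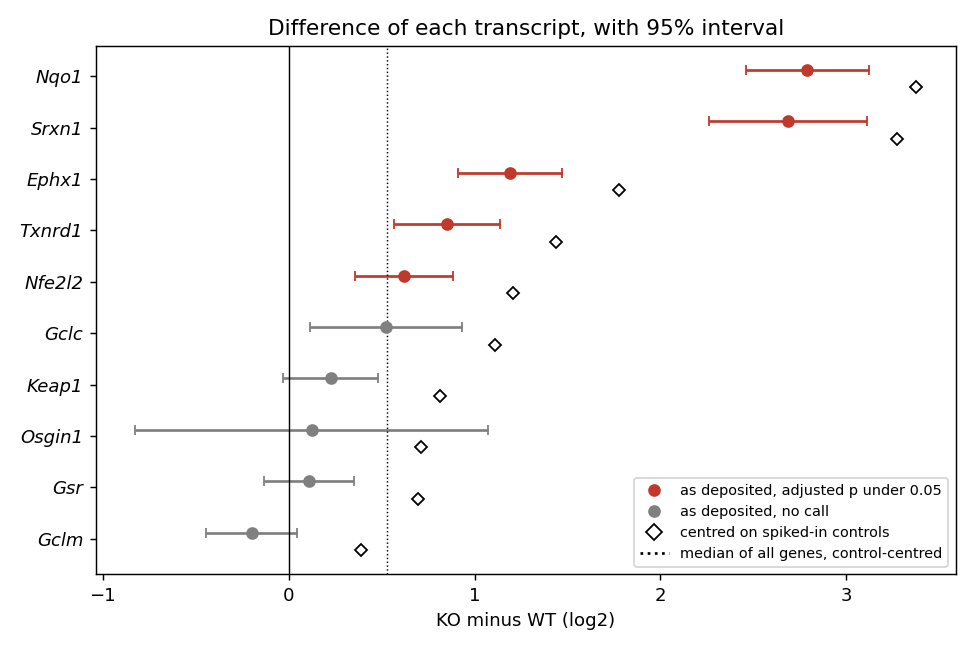
Difference KO minus WT (log2) of the 10 transcripts with its 95% interval as deposited (circles), and with the arrays centred on the spiked-in control transcripts (diamonds, dotted line for the median of all genes, 0.53). Nqo1 and Srxn1 lie far to the right, and Gclm lies left of the dotted line after centring.

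Because NRF2 binds antioxidant response elements, promoters were searched for the letters of these elements. The RefSeq promoter table (GRCm38.p6, 250 bases before to 50 after each transcript start) was searched on both strands. The letters were TGACNNNGC, the core of the antioxidant response element, and TGANTCA, which such elements share with AP-1 sites. The table held promoters of 8 members, all but Gclc and Gsr. TGACNNNGC was found for 4 of the 8 (Nfe2l2, Srxn1, Txnrd1 and Gclm), against 16.1% of the 14453 tested genes with a promoter there. It was found in 12.4% of all 32851 promoters. TGANTCA was found for 2 of the 8 (Srxn1 and Osgin1), against 7.54% of the tested genes and 7.81% of all promoters. The longer form TGANTCAGC, added after the sequences were seen, which contains TGANTCA and extends it with the half-site letters of MAF proteins, occurred in those same promoters and in 1.19% of all promoters. These are matches of letters and not measured binding sites.

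The 250 bases before the start are shown for 5 members with matches and for Nqo1, which rose most and has no match in this window. Matches are in capitals, read on the gene's strand from 5′ to 3′, and all stand in sequence of GRCm38.p6.
Srxn1 (chr2:152105274-152105523, plus strand): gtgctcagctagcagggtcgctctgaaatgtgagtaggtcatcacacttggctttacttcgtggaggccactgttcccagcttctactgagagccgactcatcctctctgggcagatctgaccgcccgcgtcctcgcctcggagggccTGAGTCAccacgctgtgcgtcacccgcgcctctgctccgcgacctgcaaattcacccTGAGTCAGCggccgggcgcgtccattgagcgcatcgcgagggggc
Txnrd1, the second of 3 promoters (chr10:82858956-82859205, plus strand): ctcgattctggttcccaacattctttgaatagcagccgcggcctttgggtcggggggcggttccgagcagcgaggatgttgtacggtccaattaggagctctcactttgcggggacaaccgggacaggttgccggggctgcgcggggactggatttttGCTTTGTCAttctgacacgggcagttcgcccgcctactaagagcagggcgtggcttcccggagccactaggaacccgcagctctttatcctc
Nfe2l2 (chr2:75704664-75704913, minus strand): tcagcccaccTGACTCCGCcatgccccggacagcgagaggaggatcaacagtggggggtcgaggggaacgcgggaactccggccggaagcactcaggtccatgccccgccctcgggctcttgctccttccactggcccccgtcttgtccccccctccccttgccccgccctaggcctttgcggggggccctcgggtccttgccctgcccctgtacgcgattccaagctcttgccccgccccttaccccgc
Nqo1 (chr8:107403206-107403455, minus strand): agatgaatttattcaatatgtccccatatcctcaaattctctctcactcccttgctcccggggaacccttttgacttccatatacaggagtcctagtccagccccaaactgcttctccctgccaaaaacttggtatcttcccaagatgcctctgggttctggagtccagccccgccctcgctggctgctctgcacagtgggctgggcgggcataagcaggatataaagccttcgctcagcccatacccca
Gclm (chr3:122245307-122245556, plus strand): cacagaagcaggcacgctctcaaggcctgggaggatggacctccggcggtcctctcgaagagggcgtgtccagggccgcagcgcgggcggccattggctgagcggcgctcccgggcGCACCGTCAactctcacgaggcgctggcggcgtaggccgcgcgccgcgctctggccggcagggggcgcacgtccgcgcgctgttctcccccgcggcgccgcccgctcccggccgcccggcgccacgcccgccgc
Osgin1 (chr8:119436897-119437146, plus strand): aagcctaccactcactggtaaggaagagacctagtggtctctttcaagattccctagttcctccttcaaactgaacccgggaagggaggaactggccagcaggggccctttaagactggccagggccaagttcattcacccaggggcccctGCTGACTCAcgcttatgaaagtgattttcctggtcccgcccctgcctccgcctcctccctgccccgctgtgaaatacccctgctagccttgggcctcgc

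In Srxn1 the TGANTCA letters begin 102 and 45 bases before the start, the nearer one running on to TGAGTCAGC, and a TGACNNNGC match lies on the opposite strand just after the start. In Txnrd1 the TGACNNNGC match begins 92 bases before the start and in Gclm 134 bases before it, both on the opposite strand. In Nfe2l2 it begins 240 bases before the start on the gene's own strand. In Osgin1 the same TGAGTCAGC letters as in Srxn1 lie on the opposite strand, beginning 99 bases before the start. The window of Osgin1 lies inside the span of the gene (119425882 to 119446257) and not at its upstream end. Promoters with matches thus belonged to 3 members that rose (Srxn1, Txnrd1 and Nfe2l2) and to 2 that did not pass (Gclm and Osgin1). Nqo1 and Ephx1, which rose, and Keap1, which did not pass, had none in these windows.

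Nfe2l2, the gene of the factor itself (chromosome 2, 75675513 to 75704663 in GRCm38.p6), was higher in KO. It stood at 10.10, 10.30 and 10.23 in KO livers, against 9.73, 9.64 and 9.40 in WT livers. The lowest KO liver lay 0.37 above the highest WT liver. The difference was 0.62 ± 0.11 (SE, adjusted p = 0.00698), a 1.54-fold rise with a 95% interval of 1.28 to 1.85. Keap1 (chromosome 9, 21229730 to 21239332), the adaptor that delivers NRF2 for degradation, stood at 8.68, 8.65 and 8.47 in KO livers, against 8.49, 8.43 and 8.21 in WT livers. The groups overlapped through KO liver 3, and the difference of 0.23 ± 0.11 did not pass (95% interval -0.030 to 0.48, adjusted p = 0.174). It was 0.14 without WT replicate 3, 0.098 with quantile normalization and 0.11 with the mean of both probe sets. A rise of Keap1 of up to 1.40-fold thus lies within the interval. With the arrays centred on the control transcripts Keap1 passed at 0.81 (adjusted p = 0.000489).

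Within an array, where scaling cancels, Nfe2l2 minus Keap1 was 1.42, 1.65 and 1.76 in KO livers, against 1.25, 1.21 and 1.19 in WT livers. Only the change of this value between groups can be read, since probe sets of different genes differ in brightness. Nfe2l2 gained 0.40 on Keap1 in KO, and no KO liver overlapped WT. The exact two-sided permutation test gave p = 0.1, the smallest that 3 against 3 livers allow, and 0.1 after adjustment over the 2 pairs tested, both chosen after their values were seen.

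Sulfiredoxin, Srxn1 (chromosome 2, 152105524 to 152111376), which restores overoxidised peroxiredoxins, stood at 10.79, 11.28 and 10.58 in KO livers, against 8.41, 8.07 and 8.11 in WT livers. Its rise was 6.44-fold (2.69 ± 0.18, adjusted p = 6.5e-05, 95% interval 4.80 to 8.65). The KO livers differed among themselves by more than in nearly all genes, with an SD of 0.36 that only 2.78% of genes exceeded, yet all lay over 2 log2 units above WT (gap 2.17). Thioredoxin reductase 1, Txnrd1 (chromosome 10, 82833951 to 82897724), the cytosolic enzyme that recharges thioredoxin with NADPH, stood at 10.96, 11.21 and 11.10 in KO livers, against 10.25, 10.43 and 10.04 in WT livers. It rose 1.81-fold (0.85 ± 0.12, adjusted p = 0.00247), with a gap of 0.54 between the groups.

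NAD(P)H quinone dehydrogenase 1, Nqo1 (chromosome 8, 107388225 to 107403205), which reduces quinones in a way that avoids radicals, stood at 8.39, 8.75 and 8.53 in KO livers, against 6.03, 5.69 and 5.58 in WT livers. The gap of 2.37 between the lowest KO and the highest WT liver was the widest of the 10 genes. The rise was 6.92-fold (2.79 ± 0.14, adjusted p = 1.7e-05, 95% interval 5.49 to 8.71). All WT arrays were above the background of 4.90, set as the 95th percentile of olfactory receptor genes, so this fold is not a bound. Microsomal epoxide hydrolase, Ephx1 (chromosome 1, 180989556 to 181017569), which opens epoxides made by cytochromes P450, stood at 12.77, 12.71 and 12.95 in KO livers, against 11.48, 11.55 and 11.83 in WT livers. It rose 2.28-fold (1.19 ± 0.12, adjusted p = 0.000466), with no overlap. The intervals of Nqo1 and Srxn1 overlapped each other and lay wholly above that of Ephx1 (0.91 to 1.47).

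The genes of glutathione supply did not pass. Gclc (chromosome 9, 77754535 to 77794489) encodes the catalytic subunit of glutamate-cysteine ligase, the rate-limiting enzyme of glutathione synthesis. It stood at 12.20, 12.45 and 11.95 in KO livers, against 12.01, 11.55 and 11.47 in WT livers. KO liver 3 lay just below WT liver 1, and the difference of 0.52 ± 0.18 missed the threshold (unadjusted p = 0.0185, adjusted p = 0.067). It passed without WT replicate 1 (0.69, adjusted p = 0.0221), with quantile normalization (adjusted p = 0.0365), with array weights (0.0452) and with centring on the control transcripts (0.000172). Without KO replicate 2 the adjusted p was 0.212.

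Gclm (chromosome 3, 122245487 to 122267215), the modifier subunit that makes the ligase more efficient, stood at 11.12, 10.94 and 11.26 in KO livers, against 11.33, 11.32 and 11.26 in WT livers. The WT livers lay closer together than in 94.2% of genes. The difference was -0.20 ± 0.11 (adjusted p = 0.207), and its interval of -0.44 to 0.046 leaves room for a rise of at most 1.03-fold. With the arrays centred on the control transcripts it became 0.39 (adjusted p = 0.0336), less than the 0.53 of the median gene. Without KO replicate 2 it was -0.11. Gsr (chromosome 8, 33653238 to 33698162), glutathione reductase, stood at 9.62, 9.65 and 9.38 in KO livers, against 9.51, 9.44 and 9.38 in WT livers. Its difference was 0.11 ± 0.10 (adjusted p = 0.471), with an interval of -0.13 to 0.35. It ranged from 0.060 without KO replicate 2 to 0.19 without KO replicate 3, and was 0.017 with quantile normalization. It passed with centring on the control transcripts (0.70, adjusted p = 0.000743).

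Within an array, Gclc minus Gclm was 1.08, 1.51 and 0.68 in KO livers, against 0.68, 0.22 and 0.21 in WT livers. The catalytic subunit gained 0.72 on the modifier in KO, but KO liver 3 and WT liver 1 were nearly level at 0.682 and 0.678. The exact two-sided permutation test again gave its smallest possible value, p = 0.1.

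**Figure D3:**
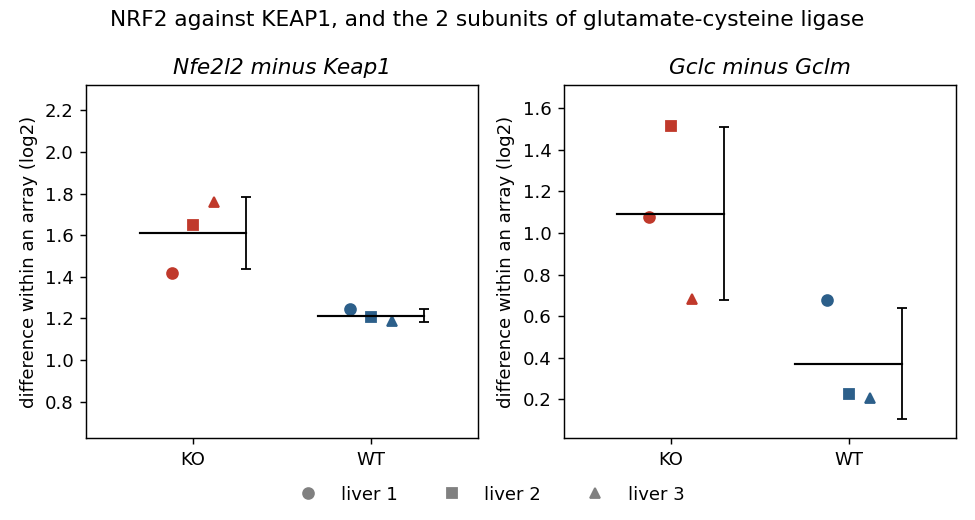
Difference within each array (log2) between Nfe2l2 and Keap1 (left) and between Gclc and Gclm (right) in 3 KO and 3 WT livers, with mean (long line) and SD (bar), on axes of equal span. KO livers lie at 1.42 to 1.76 against 1.19 to 1.25 in WT on the left, and KO liver 3 nearly meets WT liver 1 on the right.

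Osgin1 (chromosome 8, 119425882 to 119446257), a growth inhibitor induced by oxidative stress, stood at 10.01, 10.53 and 10.46 in KO livers, against 11.15, 10.21 and 9.26 in WT livers. The KO livers all lay inside the range of the WT livers, which spanned 3.70-fold. The WT SD of 0.94 was exceeded by only 0.473% of all genes. The difference of 0.12 ± 0.41 had an interval of -0.83 to 1.07 (adjusted p = 0.845), which spans a fall and a rise, the rise of up to 2.1-fold. It was 0.60 without WT replicate 1 and -0.35 without WT replicate 3, and with array weights it was -0.11, none of which passed.

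The livers kept a partial order across the members. WT liver 1 was the highest WT liver in 8 of 10 members and WT liver 3 the lowest in 8 of 10, while over all genes WT liver 1 was highest in 32.6% and WT liver 3 lowest in 34.4%. KO liver 2 was the highest KO liver in 7 of 10 members and in 33.4% of all genes. The exceptions among WT livers were Txnrd1, whose highest was liver 2, Srxn1, whose lowest was liver 2, and Ephx1, whose order ran the other way. These counts rest on 3 livers a group, and members are not replicates of each other.

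The 10 genes had 20 probe sets, of which 10 were not used above. Fitted over all 45101 probe sets, 5 of those 10 were higher in KO and 0 lower, where 9.61% of all probe sets were higher. The second probe set of Nfe2l2 was higher by 0.76 ± 0.19 (adjusted p = 0.0343), with 1 array below background. Both other probe sets of Txnrd1 were higher, by 0.60 and 0.39, the smaller one in a probe set marked by its name as open to cross-hybridisation. Srxn1 had 3 others, of which 2 rose by 2.22 and 2.20. The remaining one stood at 6.78, 6.79 and 6.95 in KO livers, against 6.41, 6.71 and 6.90 in WT livers, so the probe sets of Srxn1 disagree. The second probe set of Gclc gave 0.57 ± 0.17 (adjusted p = 0.0608) and that of Gclm -0.21 ± 0.12 (adjusted p = 0.271), close to the first ones. The second probe set of Keap1 gave -0.0019, and Nqo1, Osgin1 and Ephx1 had 1 probe set each.

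**Figure D4:**
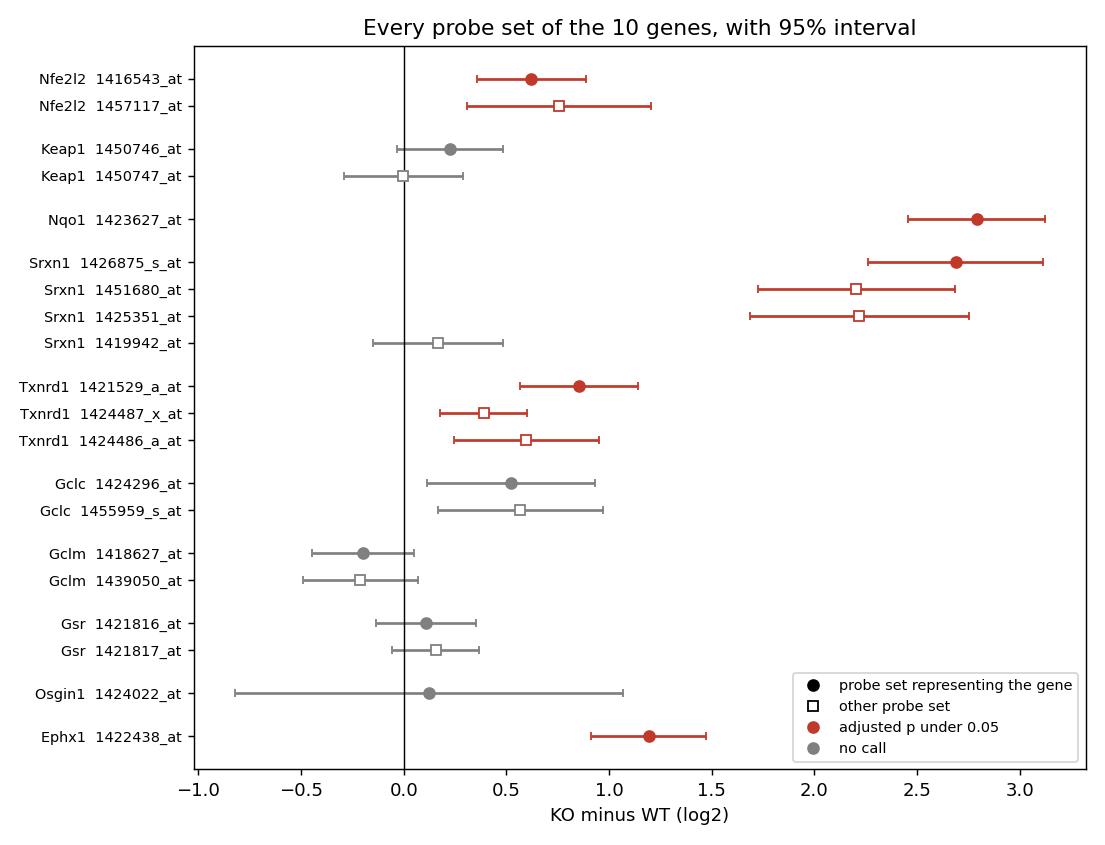
Difference KO minus WT (log2) with its 95% interval for all 20 probe sets of the 10 genes, with the one that stands for the gene as a filled circle and the others as open squares. Probe sets of 1 gene lie furthest apart in Srxn1, where 1 lies near 0 and the others at 2.20 to 2.69. Those of Txnrd1 run from 0.39 to 0.85, and those of Keap1 from -0.0019 to 0.23.

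Among 23 partners, rivals and degradation genes of NRF2, 7 were higher and 2 lower (30.4% and 8.70%, where 14.2% and 9.75% of all genes were). Their median difference was 0.20. This list and those below were also chosen with earlier results known, so their shares are descriptions. Sqstm1, an autophagy receptor that also binds KEAP1 and is itself a target of NRF2, stood at 12.96, 13.06 and 12.93 in KO livers, against 11.86, 11.57 and 11.77 in WT livers (2.38-fold, 1.25 ± 0.10, adjusted p = 0.000174). Pgam5, a mitochondrial phosphatase bound by KEAP1, rose by 0.59, and the other 3 KEAP1-binding genes (Dpp3, Amer1 and Palb2) did not pass, of which Palb2 was below background on every array and cannot be read. Nfe2l1, the related factor that drives proteasome genes, stood at 9.12, 9.13 and 8.97 in KO livers, against 8.19, 8.24 and 8.10 in WT livers (1.86-fold, 0.89 ± 0.09, adjusted p = 0.000513). That rise was larger than that of Nfe2l2 in these values, a difference that was not tested.

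Of the DNA-binding partners, the small MAF genes Mafg, Maff and Mafk (-0.34 to 0.24) did not pass. The repressors Bach1 and Bach2 (0.20 and 0.068), which compete with NRF2 for its sites, did not pass either. Bach1 did pass without WT replicate 2 (0.36, adjusted p = 0.0475). The related Nfe2l3 (0.45, adjusted p = 0.282) passed with the replicate number as a block (0.0202), with 1 KO and 2 WT arrays below background. Nfe2, the blood-cell relative, passed narrowly (1.06 ± 0.31, adjusted p = 0.0428), with 6.78, 5.73 and 5.50 in KO livers, against 5.26, 4.70 and 4.86 in WT livers. WT livers 2 and 3 lay below background, and without KO replicate 1 the difference was 0.68. Its call was lost without KO replicate 1 or 2 or without WT replicate 2 or 3 (adjusted p from 0.0543 to 0.11) and with trend and robust eBayes (0.0577). Gsk3b, a kinase that marks NRF2 for degradation, rose 1.68-fold (0.74 ± 0.16, adjusted p = 0.0134). It no longer passed without KO replicate 2 (0.0562) or when its probe sets were averaged (0.0651). Cul3, the ligase scaffold, differed by 0.41 ± 0.13 and missed the threshold (adjusted p = 0.0541), but passed under 8 alternatives, among them array-median centring (0.0448), the filter on dim genes (0.0455) and trend and robust eBayes (0.0348). Syvn1, a ligase of the endoplasmic reticulum, fell by 0.53, a call lost without any one of KO replicates 1, 2 and 3 or WT replicate 2 (adjusted p from 0.0505 to 0.0806). The nuclear receptor Rxra fell by 0.43, but did not pass without KO replicate 1 (0.0577) or 2 (0.0628). The coactivators Crebbp and Ep300 were higher by 0.33 and 0.35, but neither passed without any one of KO replicates 1, 2 and 3, or with quantile normalization (adjusted p = 0.111 and 0.125). The 7 higher genes were 4 without KO replicate 1 and 3 without KO replicate 2, and the 2 lower ones 0, 0 and 1 without KO replicate 1, 2 and 3. With centring on the control transcripts 18 of 23 were higher and 0 lower, where 77.3% of all genes were higher.

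Of 39 further NRF2 targets listed, 32 were measured. Of these 19 were higher and 3 lower (59.4% and 9.38%, against 14.2% and 9.75% of all genes). Their median difference was 0.65, against -0.055 over all genes. The list was chosen with earlier results of these data known, so its counts are a description and not a test. The other listed targets (Prdx1, Gsta1, Ugt1a6a, G6pdx, Ftl1, Htatip2 and Cyp2a5) were not analysed here. Abcc4 and Cbr3 had larger differences than any of the 10 members. Abcc4, an efflux transporter on the blood side of hepatocytes, stood at 10.90, 11.32 and 10.89 in KO livers, against 4.55, 4.68 and 4.55 in WT livers. All its WT values lay below the background of 4.90, and the rise was at least 70.3-fold (adjusted p = 7.53e-07).

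The carbonyl reductase Cbr3 stood at 9.81, 10.73 and 10.18 in KO livers, against 5.11, 5.10 and 5.31 in WT livers (33.5-fold, 5.07 ± 0.21, adjusted p = 1.04e-05). The WT values of Cbr3 lay little above the background of 4.90, which limits how exactly this fold can be read. Its relative Cbr1 stood at 11.88, 11.98 and 11.77 in KO livers, against 9.53, 9.09 and 9.51 in WT livers (5.67-fold, adjusted p = 2.3e-05). Of 6 carbonyl reductases and oxidases 3 were higher, with Ptgr1, which reduces unsaturated aldehydes, as the third (2.01), and Akr7a5 was lower (-0.47), but not without KO replicate 2 (adjusted p = 0.0625). KO and WT livers did not overlap in any of these 4 genes.

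Glutathione transferases went both ways. Of 9 transferase and glutathione peroxidase genes 4 were higher and 2 lower. Gstm3, Gstm4 and Gstm1 of the mu class were higher, by 2.07, 0.94 and 0.58. The probe set of Gstm1 is marked by its name as open to cross-hybridisation, as are those of Akr7a5, Pgd and Tkt. That of Gstm3 is marked by its name as sharing probes between transcripts, as are those of Srxn1, Abcc2 and Fth1. Gsta4 and Gsta3 of the alpha class were lower, with differences of -0.64 and -0.47. The call of Gsta3 was lost without KO replicate 2 (adjusted p = 0.0716) or 3 (0.0605). Gsta2 (0.65), Gstm2 (-0.29) and Gstp1 (-0.20) did not pass, though Gsta2 did without WT replicate 3 (1.14, adjusted p = 0.00701) and with array weights (0.99, adjusted p = 0.0365). Gpx2, a glutathione peroxidase best known from the gut, stood at 7.53, 6.92 and 8.41 in KO livers, against 5.50, 5.39 and 5.31 in WT livers (4.65-fold, 2.22 ± 0.32, adjusted p = 0.00241). Its WT values too lay little above the background of 4.90.

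All 4 measured genes of NADPH supply and the pentose phosphate pathway had positive differences. Of these 3 passed, namely Me1 (1.58), Pgd (1.49) and Tkt (0.65), while Taldo1 differed by 0.021. Of 5 transporters 4 were higher, namely Abcc4, Abcc2 (0.90), the lysosomal heme carrier Slc48a1 (0.90) and Slc7a11. Slc7a11, the cystine importer that feeds glutathione synthesis, stood at 5.20, 5.82 and 5.42 in KO livers, against 4.18, 4.58 and 4.57 in WT livers. All its WT values were below background, and its rise was at least 1.49-fold (adjusted p = 0.0051). In glucuronidation Ugdh, which makes the sugar donor, rose by 1.52 and Entpd5 by 0.81. Among heme and iron genes Blvrb and Fth1 were higher, by 0.58 and 0.29, and the call of Fth1 was lost without any one of KO replicates 1, 2 and 3 and WT replicates 1 and 2 (adjusted p from 0.0718 to 0.119). Hmox1, heme oxygenase 1, stood at 7.51, 7.61 and 8.31 in KO livers, against 7.42, 7.30 and 6.88 in WT livers. Its groups lay apart but by little, and the difference of 0.61 ± 0.23 did not pass (adjusted p = 0.0887). The 3 lower targets of this list were 1 without KO replicate 2, and 0 with centring on the control transcripts, where 27 of 32 were higher.

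**Figure D5:**
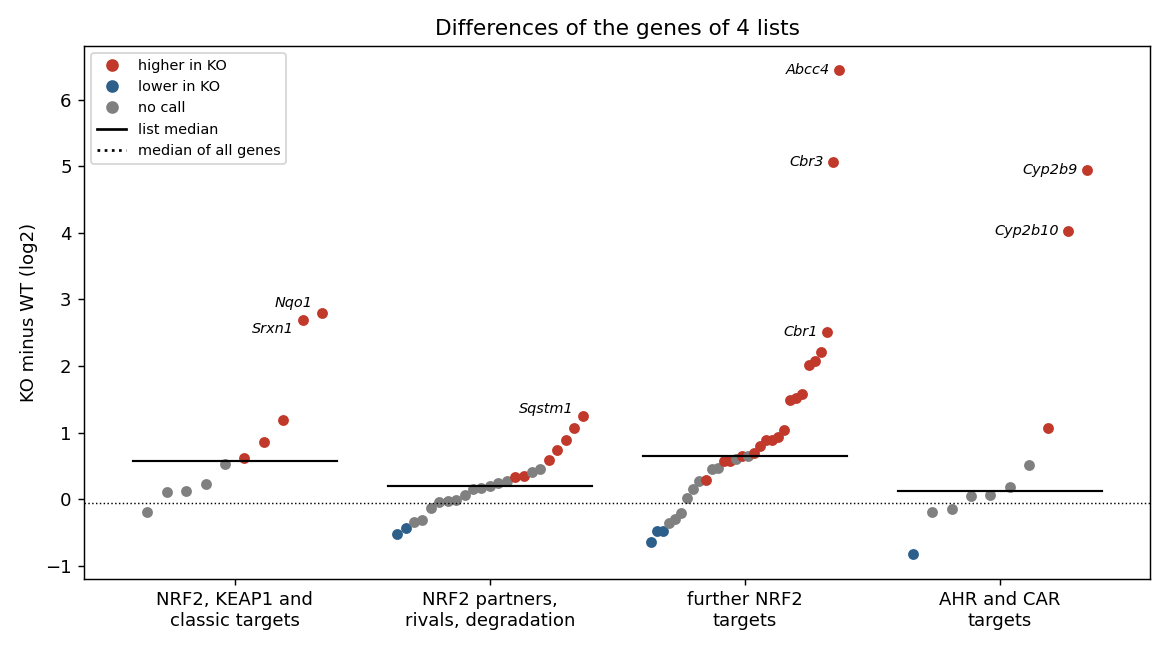
Difference KO minus WT (log2) of each gene in 4 lists, ordered by size within a list, coloured by call, with the list's median as a solid line and the median of all genes (-0.055) as a dotted line. The medians are 0.57, 0.20, 0.65 and 0.13 from left to right, and Abcc4, whose WT arrays are all below background, Cbr3 and Cyp2b9 lie highest.

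Nqo1 is also induced through the aryl hydrocarbon receptor (AHR) and Ephx1 through the constitutive androstane receptor (CAR), so targets of both were read beside them. Of 5 AHR targets 0 were higher and 1 was lower (limma, the same counts at an unadjusted p under 0.05). Cyp1a2 was the lower one, at 12.12, 11.91 and 11.22 in KO livers, against 12.53, 12.60 and 12.61 in WT livers (-0.83 ± 0.21, adjusted p = 0.0252). It did not pass without KO replicate 2 (0.0562), WT replicate 2 (0.0627) or WT replicate 3 (0.0586). Tiparp differed by 0.067 and did not pass. Ahrr was below background on every array, and Cyp1a1 and Cyp1b1 on 3 of 6 arrays each, so for these 3 targets the missing call says little.

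Of 5 CAR targets 3 were higher and 0 lower. Cyp2b9 stood at 11.32, 11.32 and 10.58 in KO livers, against 7.04, 4.71 and 6.66 in WT livers (30.7-fold, 4.94 ± 0.55, adjusted p = 0.000696), and Cyp2b10 at 10.20, 10.33 and 10.72 in KO livers, against 6.70, 5.43 and 7.04 in WT livers (16.3-fold, 4.02 ± 0.37, adjusted p = 0.000295). For Cyp2b9, 1 WT array was below background. Cyp2c55 was higher by 1.06 ± 0.27 (adjusted p = 0.0252), a call lost without KO replicate 1 or 3 or WT replicate 2 or 3 (adjusted p from 0.0645 to 0.087). Over all 10 measured genes 3 were higher and 1 lower (30.0% and 10.0%, where 14.2% and 9.75% of all genes were), with a median of 0.13. The part of either receptor in the rises of Nqo1 and Ephx1 was not tested.

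Expressed as differences from the WT mean over the 6 arrays, the genes nearest to Nqo1 were Niban1, Plekha1, Atp10d, Slc3a2 and Srxn1, at Euclidean distances of 0.23 to 0.41. Niban1 stood at 8.36, 8.66 and 8.42 in KO livers, against 6.02, 5.76 and 5.67 in WT livers. Slc3a2, the heavy chain shared by several amino acid exchangers, stood at 12.12, 12.18 and 12.13 in KO livers, against 9.57, 9.44 and 9.48 in WT livers. Srxn1 was thus the only other member among these 5 genes of 18194, which were chosen for their likeness and are a description.

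In whole liver, more RNA per cell and more cells of a type that expresses a gene cannot be told apart. Of 14 macrophage markers measured 2 were higher and 0 lower (14.3% higher, where 14.2% of all genes were), with 2 and 3 at an unadjusted p under 0.05 in limma. Cd14 was higher by 1.45, and Gpnmb lay at 6.15 to 7.47 in KO livers, against 4.50 to 5.31 in WT livers, of which 2 were below background. The Kupffer cell markers Clec4f, Vsig4 and Adgre1 differed by -0.22, -0.093 and -0.27 without passing. The summed linear level of all 14 macrophage markers ran from 4856 to 6095 on KO arrays and from 3330 to 7326 on WT arrays. Itgam was below background on every array. Of 7 biliary and progenitor markers Prom1 and Cd24a were higher and Krt19 lower (28.6% and 14.3%), Prom1 with every WT array and Krt19 with every KO array below background, with summed levels of 308 to 654 on KO arrays and 242 to 316 on WT arrays, and Krt7 and Cftr below background throughout. Of 8 endothelial markers 1 was higher (Lyve1, with every WT array below background) and 3 lower (12.5% and 37.5%), with sums of 1633 to 1865 on KO arrays and 2057 to 2493 on WT arrays. Of 9 stellate and fibroblast markers 0 were higher and 2 lower (22.2%), or 0 and 3 at an unadjusted p under 0.05 in limma, with sums of 3653 to 4277 on KO arrays and 4693 to 4971 on WT arrays. Of 9 markers of lymphocytes and neutrophils 0 were higher and 0 lower in limma (0 and 1 at an unadjusted p under 0.05), Cd3g and Nkg7 were below background throughout, and the list had sums of 305 to 433 on KO arrays and 366 to 546 on WT arrays. The part of these cells in the rises of the NRF2 targets was not tested.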

How the data were processed

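The authors deposited RMA values, which are log2 levels, 1 per probe set and array; the submitters' processing notes name RMA without a version. That scale fits the values, whose range is 2.15 to 14.9. RMA gives all arrays 1 distribution, so a shift of most transcripts one way is removed. Probe sets were named through the platform annotation of 2016, which gives 34958 of 45101 probe sets 1 symbol, and the one with the highest mean over the 6 arrays stood for each of 18194 genes. KO was compared with WT in limma 3.58.1 under R 4.3.3 (lmFit and eBayes, two-sided) without a filter, and a gene passed at a Benjamini-Hochberg adjusted p under 0.05 over the 18194 genes. The p-values measure the spread between these livers. Background was the 95th percentile, 4.90, of the mean levels of 39 olfactory receptor genes. Promoters are from RefSeq. Alternatives covered normalization, centring, filter, probe set, weights, threshold and each array left out. The members and lists were chosen with earlier results of these data known. The text names all members, up to 4 changed genes per list with the largest difference, Pex5, and the 5 genes nearest Nqo1. Other list members were named by role after their values were seen. The number of arrays limits the precision.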

Additional observations from a re-analysis of the deposited data

How the results depend on the processing

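The 5 members higher in KO (Nfe2l2, Nqo1, Srxn1, Txnrd1 and Ephx1) kept their call under all 14 refits and at adjusted p under 0.01. Of the alternative values of the member differences, 141 kept direction and call. Another 6 kept direction and passed where the deposited values did not (4 of them Gclc), and 3 turned in sign. Of these 3 only that of Gclm, with centring on the control transcripts, passed in its new direction (limma, adjusted p = 0.0336). Osgin1, which never passed, turned to -0.11 with array weights and to -0.35 without WT replicate 3. Centring on the bacterial control transcripts turned Gclm to 0.39 and gave 14063 higher and 341 lower genes (2589 and 1774 as deposited), 9 higher members, 18 higher and 0 lower partners, 0 lower further targets, and 9 higher and 0 lower AHR and CAR targets. This follows from the constant of 0.59 that it adds. At adjusted p under 0.01 there were 1285 higher and 732 lower genes, 3 higher and 0 lower partners, 0 lower further targets and 0 lower AHR and CAR targets. Leaving out 1 array at a time gave 1491 to 2424 higher and 886 to 1679 lower genes, 5 to 6 higher members, 3 to 6 higher and 0 to 2 lower partners, 1 to 4 lower further targets and 0 to 1 lower AHR and CAR targets. The fewest genes passed without KO replicate 2. Fewer arrays widen the intervals, and any other cause was not tested.

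Replicate numbers were not treated as pairs in the main fit. Same-numbered livers correlated in their deviations at 0.10, -0.018 and 0.11, and 3 of 6 arrays correlated best with their own number. With 3 livers a group these values cannot decide whether the numbers pair the livers. With the replicate number as a block 2471 genes were higher and 1618 lower, 5 members were still higher, and 3 of the members' other probe sets were higher, against 5 without the block, the lost ones being the second of Nfe2l2 (adjusted p = 0.0569) and 1 of Txnrd1 (0.0539). The number of arrays, 3 a group, limits the precision, and probe sets at background hold only a bound.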
